A study of Mus musculus with 18 samples.

Results

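Kinesins and cytoplasmic dynein are the motors that carry cargo along microtubules, and the genes described here are those whose symbols begin with Kif and a digit, the kinesin light chains Klc1 to Klc4, the subunits of cytoplasmic dynein 1 and 2 (Dync1, Dync2) and the dynactin subunits Dctn1 to Dctn6. The rule matched 58 symbols in the RefSeq gene table. Of these, 54 had 76 probes on the array, 4 had none (Kif14, Kif28, Kif16bos and Kif22-ps), and 51 were tested because their Cy5 signal was well above background on at least 3 of 17 arrays. The 3 genes left untested, Kif11, Kif15 and Kif2b, were above background on 0 of 17 arrays. These 51 genes, which include the transcribed pseudogene Kif4-ps (well above background on 9 of 17 arrays), are set against 25131 genes tested in all. The arrays compared whole mouse retinas collected 3 days after optic nerve crush, an injury to the axons of retinal ganglion cells, in mice whose Map3k12 gene, which encodes the kinase DLK, was flanked by lox sites. DLKlox:Crepos mice carried a tamoxifen-inducible Cre-ERT transgene under the CAG promoter, which is active in many tissues, and DLKlox:Creneg littermates did not. All mice received tamoxifen at 10 to 12 weeks of age, so the floxed gene and the drug are shared by every group, and the deletion is not restricted to neurons. The groups were 4 uncrushed and 3 crushed Cre-negative retinas, and 5 uncrushed and 5 crushed Cre-positive retinas. The labels give each array its own sample number but do not say that each came from a different mouse, so p-values measure the spread between these samples only. An additional Cre-negative array whose labels disagree on crush was kept out of the comparisons. Replicates are numbered here in the order of deposit, which pairs no samples.

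Conventional kinesin is a pair of heavy chains, encoded by Kif5a, Kif5b or Kif5c, with light chains that bind cargo, and it moves organelles and vesicles from the cell body toward the axon tip. Cytoplasmic dynein 1, helped by dynactin, runs in the opposite direction and brings endosomes and injury signals back to the cell body, while dynein 2 works inside cilia. Other kinesins build and move the mitotic spindle and are found mainly in dividing cells. In optic nerve injury DLK is known as a kinase in the axon's stress response that acts through JNK, whose scaffold proteins are themselves carried by these motors.

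Each array reported Cy5-labelled retina RNA against a Cy3-labelled universal mouse reference, and all values below are log2 ratios of the 2 or differences between group means of such ratios. Between 68.0% and 75.5% of probes were well above background per array, and between 48 and 50 of the motor genes were. No motor probe had a saturated spot. Map3k12 ranged from 2.21 to 2.58 in uncrushed and 2.32 to 2.61 in crushed Cre-negative retinas, and from 1.77 to 2.17 and 1.84 to 2.34 in the Cre-positive ones. The Cre-positive mean minus the Cre-negative one was -0.43 in uncrushed (adjusted p = 0.876, limma) and -0.47 in crushed retinas (adjusted p = 0.0605, limma), in the direction of the labels, though neither passed 0.05 and whether the probe lies in the deleted part is not given in the sources used here. Cre-positive uncrushed replicate 4 stood apart in its cornea, iris and ciliary body genes (mean log2 ratio 1.26, against at most -0.70 in every array of the other 3 groups), and Cre-positive crushed replicate 5 in lens crystallins (1.78, against at most 0.84 in the other 3 groups). The arrays were retina by their markers: the mean log2 ratio of rod genes was 6.40 to 6.69 and of bipolar cell genes 4.32 to 4.57 in every grouped array. Some results that rest on the cornea-rich and lens-rich arrays are also given without them, and all others include them.

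By their brightest probes, most of the cargo motor genes were richer in retina than in the reference, and the tested spindle motors were poorer. In uncrushed Cre-negative retinas 13 of 15 cargo kinesins, all 4 light chains, 3 of 5 dynein-1 and 5 of 6 dynactin genes lay above the reference by this probe, as did 13930 of all 25131 genes. Kif1b, a carrier of mitochondria and synaptic vesicle precursors, was at 5.87 ± 0.10 (SD, n = 4), Kif5a, the neuron-specific conventional heavy chain, at 4.72 ± 0.098, Kif1a, the synaptic vesicle precursor motor, at 4.29 ± 0.050, and Kif5c, another neuronal heavy chain, at 4.21 ± 0.088. Kif5b, the heavy chain that most cell types make, was at 1.16 ± 0.13. Among dynein-1 genes the neuronal intermediate chain Dync1i1 was at 6.05 ± 0.13 and its broadly made partner Dync1i2 at 0.30 ± 0.041. The heavy chain Dync1h1 was at 1.05 ± 0.14 and Dctn1, the large dynactin subunit, at 2.76 ± 0.076. The ratio depended on the probe: the second probes of Kif1b, Kif1a and Klc1 read 0.23 ± 0.068, 1.36 ± 0.17 and -1.19 ± 0.077 in the same arrays, against 5.87, 4.29 and 1.99 for the brightest, while the second Dync1i1 probe read 5.15 ± 0.062.

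All 8 tested mitotic kinesins, also by the brightest probe, lay below the reference, with a median of -3.37. They ran from -1.30 ± 0.083 for Kif22, which moves chromosomes, to -4.52 ± 0.040 for Kif20a, which acts at cell division. The 6 ciliary or centriolar kinesins had a median of 0.24, and Kif7, a regulator of Hedgehog signalling at the cilium tip, was the lowest of them at -2.29 ± 0.050. The median of all genes tested was 0.083. These ratios compare retina with a reference mixture gene by gene and do not rank the genes by abundance.

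**Figure D1:**
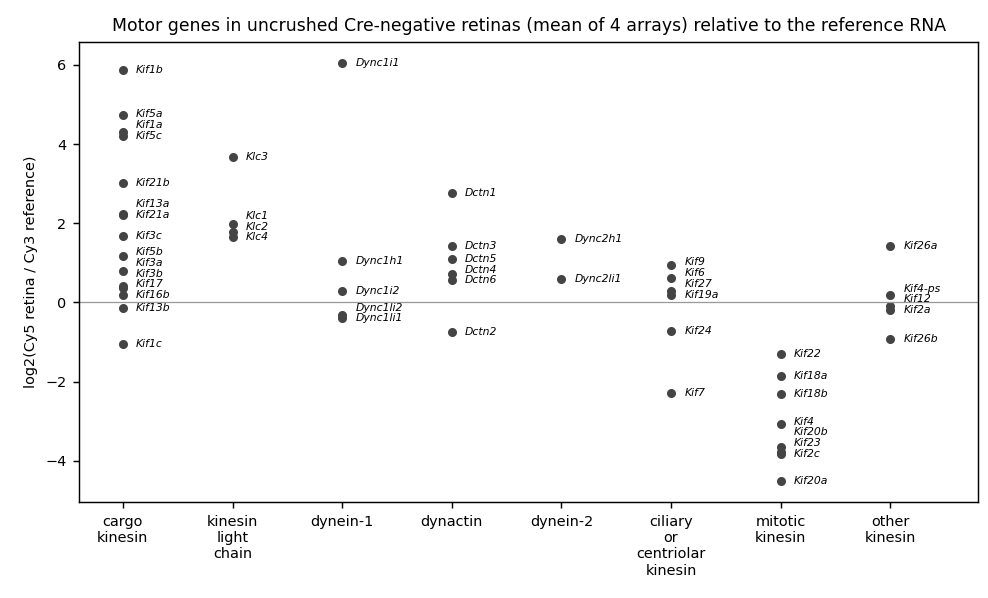
Log2 ratio of retina to reference RNA for each of 51 motor genes (vertical axis, log2 scale; 1 point per gene, mean of 4 uncrushed Cre-negative arrays) in 8 classes. By the brightest probe of each gene, Dync1i1 at 6.05 and Kif1b at 5.87 lie at the top, and all 8 mitotic kinesins lie below 0.

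Optic nerve crush left the motor genes of Cre-negative retinas near their uncrushed values 3 days later. With 1 probe per gene, 0 of 51 passed an adjusted p of 0.05 (limma, Benjamini-Hochberg over all genes), against 2.19% of all genes tested, and 6 had an unadjusted p under 0.05, against 13.4% of all genes. The uncrushed and crushed values did not overlap for 7 of 51, against 15.5% of all genes. The median crush effect was -0.0036 over the motor genes and 0.0015 over all genes. The 95% intervals of all 51 lay within a 1.5-fold change in either direction, as did those of 95.1% of all genes, and a larger change of any of these probes lies outside its interval. Among the 15 cargo kinesins 10 effects were below 0 and 5 above, with a median of -0.022. By the brightest probe, those of all 4 light chains were below 0, from -0.15 for Klc2 to -0.0035 for Klc3. For 0 of these 4 was the unadjusted p under 0.05 (limma). The sign depended on the probe: the second Klc1 probe gave 0.070, against -0.14 for the brightest. The second Klc3 probe gave -0.14. The 30 cargo kinesin, light chain, dynein-1 and dynactin genes together had a median of -0.025.

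The lowest cargo kinesin was Kif5a. It read 4.65, 4.86, 4.65 and 4.74 in the uncrushed and 4.58, 4.47 and 4.50 in the crushed Cre-negative retinas. All 3 crushed retinas were below all 4 uncrushed ones, but the difference of -0.21 (SE 0.073, 95% interval -0.36 to -0.054) did not pass (adjusted p = 0.192, limma). With the Cy5 channel alone it was -0.39 (adjusted p = 0.00134, limma), the only 1 of 31 other settings in which it passed. Over these settings it ran from -0.39 to -0.15, with adjusted p up to 0.491 (limma). In Cre-positive retinas Kif5a read 4.98, 4.85, 4.88, 4.83 and 4.81 uncrushed and 4.71, 4.74, 4.98, 4.67 and 4.78 crushed, and these groups overlapped (difference -0.091, adjusted p = 0.671, limma).

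The ganglion cell markers of the same arrays moved much further. Their mean log2 ratio was 3.18 to 3.31 in uncrushed and 2.33 to 2.41 in crushed Cre-negative retinas, 14 of 15 effects of crush were below 0 with a median of -0.76, and 11 passed an adjusted p of 0.05 (limma). In Cre-positive retinas it was 3.32 to 3.47 uncrushed and 3.06 to 3.17 crushed, all 15 effects were below 0 with a median of -0.28, and 4 passed (limma). In whole retinas, fewer cells of a type and less RNA per cell cannot be told apart. The motor values are likewise those of the whole retina, and a change of motor genes within ganglion cells alone was not measured. Of 11 microglia and macrophage markers, 10 had effects above 0 in each genotype, and 4 without Cre and 8 with Cre passed (limma). The medians of the 8 motor classes lay between -0.13 and 0.11 in Cre-negative and between -0.052 and 0.064 in Cre-positive mice. The part of these cell types in the motor values was not tested.

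**Figure D2:**
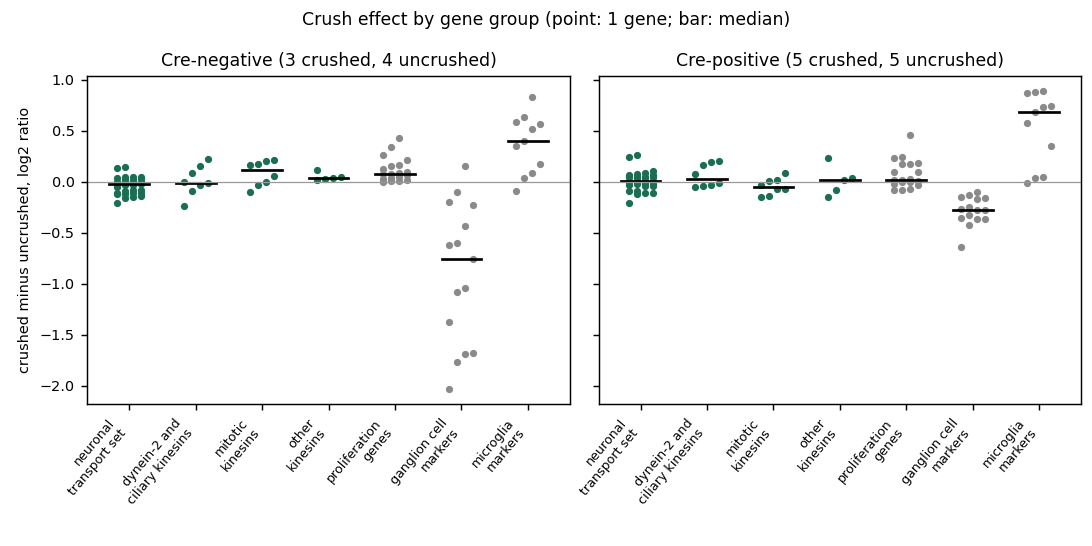
Crush effect (vertical axis, crushed minus uncrushed log2 ratio) of motor classes in green and of 3 comparison lists in grey; each point is 1 gene and each bar a group median, with Cre-negative retinas on the left and Cre-positive on the right. In RNA of whole retinas the motor genes stay near 0 while ganglion cell markers have a median of -0.76 in Cre-negative retinas.

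In Cre-positive retinas crush gave 0 of 51 motor genes past the threshold, against 0.776% of all genes, and 6 with an unadjusted p under 0.05, against 9.57%. The groups did not overlap for 1 gene, Kif9, against 2.08% of all genes. The median effect was 0.00041, and all 51 intervals again lay within 1.5-fold (97.7% of all genes). The nearest were 2 kinesins with ciliary roles. Kif9, a motor of motile cilia and flagella, read 1.03, 1.02, 0.98, 0.97 and 0.96 uncrushed and 1.09, 1.20, 1.28, 1.06 and 1.29 crushed. The difference was 0.19 (SE 0.054, adjusted p = 0.141, limma). In Cre-negative retinas Kif9 read 1.06, 0.84, 1.00 and 0.90 uncrushed against 1.15, 1.15 and 1.21 crushed (0.22, SE 0.065, adjusted p = 0.101, limma). The other 3 Kif9 probes gave -0.029 to 0.19 in Cre-negative and -0.063 to -0.0078 in Cre-positive retinas. Kif27, a relative of Kif7, had a crush effect of 0.21 (SE 0.059, adjusted p = 0.152, limma) with Cre and -0.0066 without.

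The crush effects of the 2 genotypes differed for 0 of 51 motor genes, against 0.418% of all genes. An unadjusted p under 0.05 was reached by 6, against 8.41% of all genes. The median difference was 0.0057. The interval stayed within 1.5-fold for 50 genes (91.2% of all genes). The exception was Kif21b, a neuronal kinesin that also restrains microtubule growth, at 0.36 (95% interval 0.045 to 0.68, adjusted p = 0.529, limma). Its Cre-positive crush effect was 0.26 (adjusted p = 0.377, limma) and became 0.21 without the cornea-rich array. That array also held the lowest Dctn4 and Kif2a values: without it the Cre-positive crush effect of Dctn4, a dynactin subunit, went from 0.24 to 0.16 and that of Kif2a, a microtubule depolymeriser, from 0.23 to 0.145 (adjusted p = 0.699 and 0.828, limma). With all arrays kept, the other Kif2a probes gave Cre-positive crush effects of only -0.017 and 0.063, and the other Dctn4 probe gave 0.22.

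**Figure D3:**
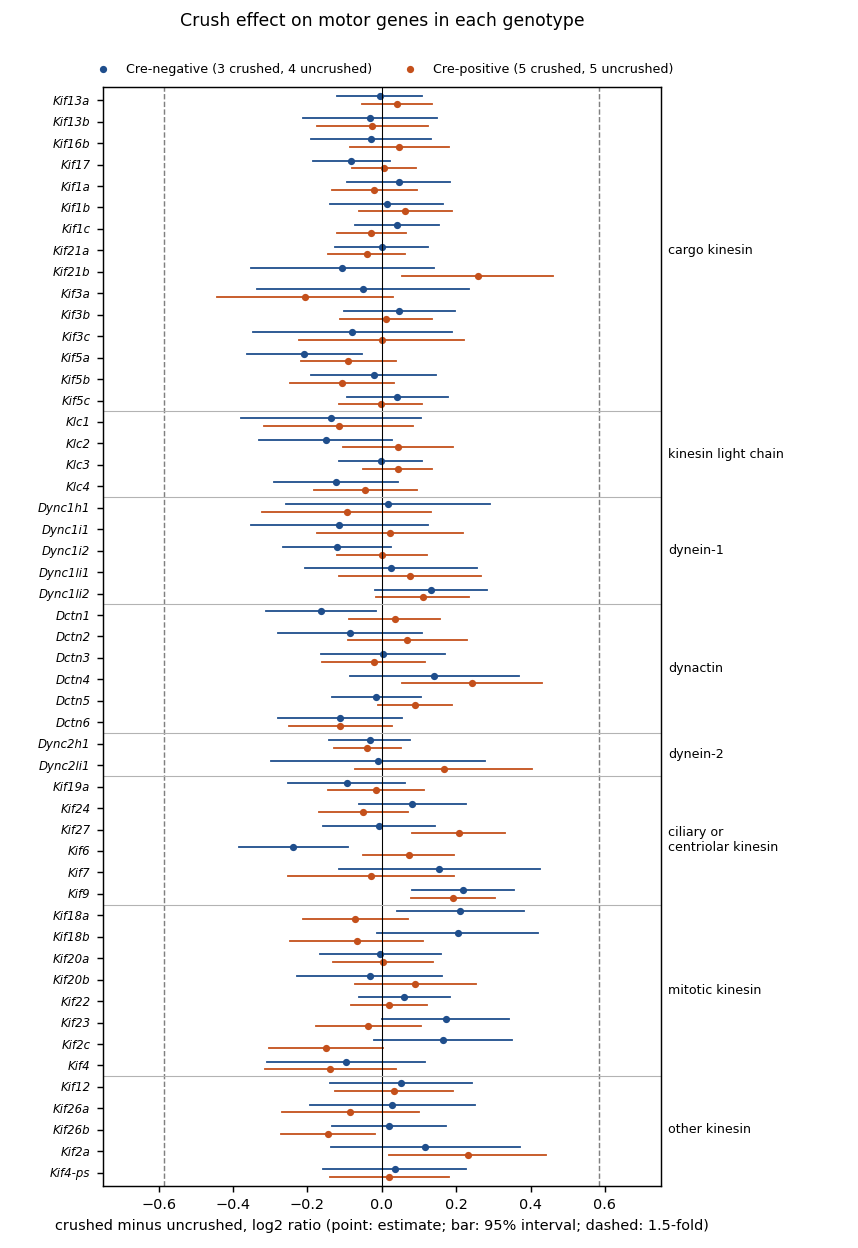
Crush effect on each of 51 motor genes (horizontal axis, crushed minus uncrushed log2 ratio) in Cre-negative (blue) and Cre-positive (orange) retinas; points are limma estimates, bars 95% intervals and dashed lines 1.5-fold. Every bar ends inside the dashed lines.

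The mitotic kinesins had median crush effects of opposite sign in the genotypes, without any of them passing. The medians were 0.11 without Cre and -0.052 with Cre, 6 of 8 had a lower effect with Cre, and the median difference was -0.13, against 0.0028 for all genes. Kif18a, which limits chromosome movements at metaphase, read -1.81, -1.91, -1.84 and -1.88 uncrushed and -1.85, -1.50 and -1.60 crushed in Cre-negative retinas (0.21, adjusted p = 0.245, limma). In crushed Cre-positive retinas it read -1.96, -1.79, -1.92, -1.88 and -2.08. Cre-negative crushed replicate 1 lay inside the Cre-positive range, and the difference between the crushed groups was -0.28 (SE 0.078, adjusted p = 0.10, limma). Without that replicate, the Cre-negative one nearest the Cre-positive values, it was necessarily larger, at -0.37 (adjusted p = 0.0270, limma). Over 31 other settings the difference ran from -0.37 to -0.18 and passed in 2, with adjusted p up to 0.574 (limma). Kif2c, the centromere depolymeriser, had a difference of crush effects of -0.31 (adjusted p = 0.427, limma). The 19 tested proliferation genes had median crush effects of 0.075 without Cre, with 18 above 0, and 0.018 with Cre, with 14 above 0. Among all 25131 genes 12708 were above 0 without Cre and 12621 with Cre, and 2.19% and 0.776% passed. Of the 19 proliferation genes 1 passed (Mcm6, a replication helicase subunit, higher by 0.34 in Cre-negative retinas, adjusted p = 0.0320, limma). Their mean log2 ratio was -4.18 to -4.10 in uncrushed and -4.08 to -3.95 in crushed Cre-negative retinas, which did not overlap, and -4.15 to -4.02 and -4.09 to -3.92 in Cre-positive ones. The part of proliferation genes in the mitotic kinesin values was not tested.

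**Figure D4:**
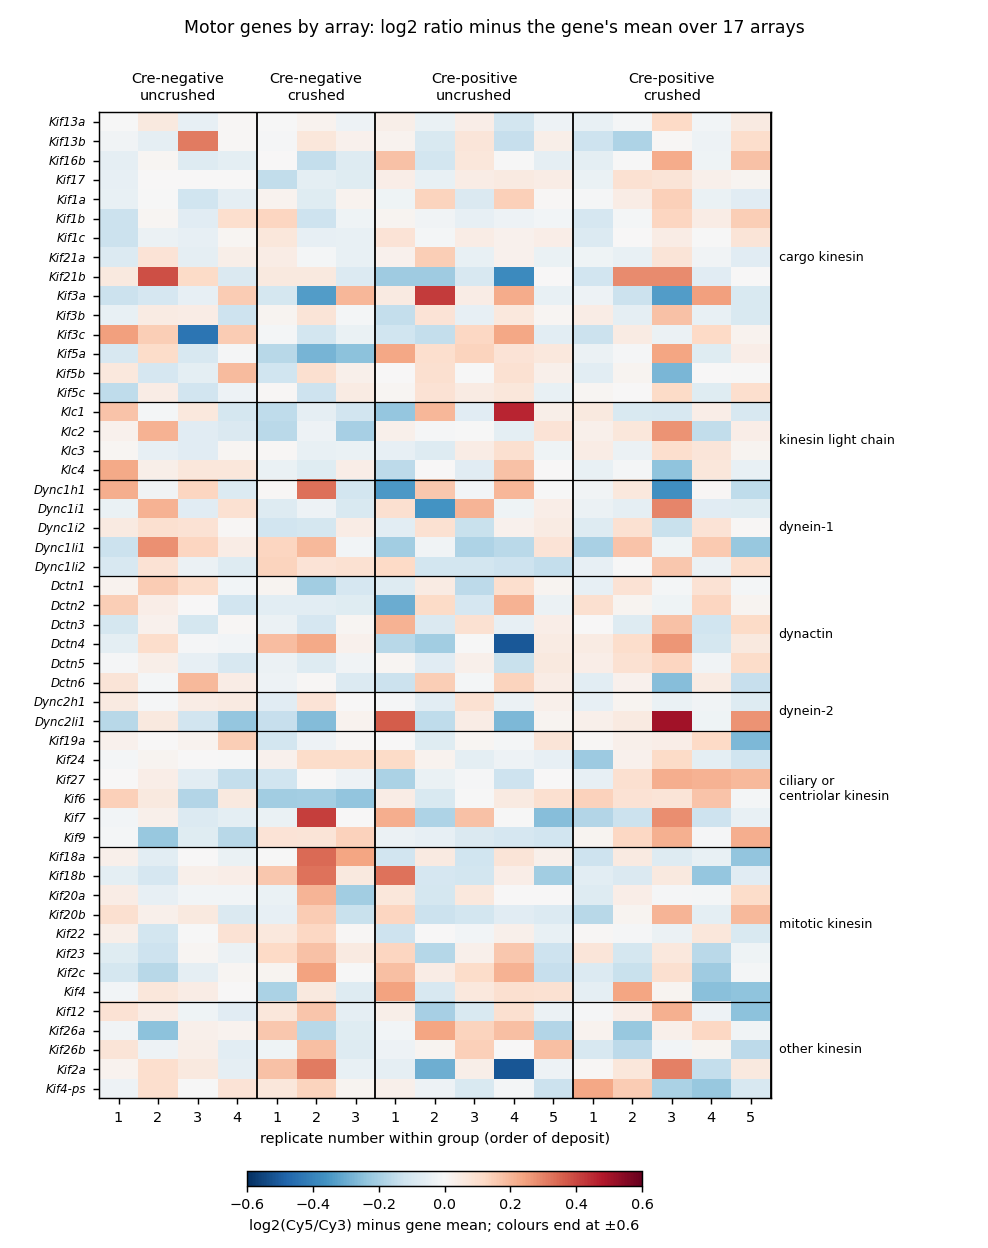
Log2 ratio of each motor gene minus its mean over 17 arrays (colour, ending at ±0.6) by array (columns, 4 groups) and class (rows). Most cells are pale, and single arrays such as Cre-positive uncrushed replicate 4 and Cre-positive crushed replicate 3 hold several of the strong colours.

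In uncrushed retinas 0 of 51 motor genes passed for Cre (limma), against 0.0119% of all genes, 2 had an unadjusted p under 0.05 (Kif21b at -0.30 and Kif5a at 0.14) against 5.63% of all genes, and all 51 intervals lay within 1.5-fold (98.1% of all genes). The Kif21b difference includes the cornea-rich array, which held the lowest Kif21b value (2.51). The groups overlapped for all 51 genes, while 1.97% of all genes did not overlap. After crush 1 of 51 passed, against 1.16% of all genes, which is a share near the background. An unadjusted p under 0.05 was reached by 9, against 13.9%, and all 51 intervals lay within 1.5-fold (96.3% of all genes). The groups did not overlap for 5 of 51, against 10.3% of all genes. For Kif5a the difference was 0.26 (SE 0.070, 95% interval 0.12 to 0.41), with all 5 Cre-positive crushed retinas above all 3 Cre-negative ones, and did not pass (adjusted p = 0.0799, limma). Beside this, 14 of 15 ganglion cell markers had higher means in Cre-positive than in Cre-negative crushed retinas, and 11 passed (limma).

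The gene that passed was Kif6, a ciliary kinesin. It read 0.39, 0.39 and 0.36 in Cre-negative crushed retinas and 0.73, 0.68, 0.67, 0.76 and 0.59 in Cre-positive crushed ones. It read 0.74, 0.66, 0.42 and 0.65 in Cre-negative and 0.64, 0.50, 0.59, 0.65 and 0.69 in Cre-positive uncrushed retinas. The 3 Cre-negative crushed arrays were thus the lowest of all 17, and the difference between the crushed groups was 0.31 (SE 0.066, 95% interval 0.17 to 0.45, adjusted p = 0.0254, limma). Within the slides that held both crushed groups it was 0.23 and 0.34. With the mean of both its probes it was 0.081 (adjusted p = 0.595, limma), and the call was kept in 20 of 31 other settings, over which the difference ran from 0.081 to 0.59. It was 0.23 with the slide as a block (adjusted p = 0.275, limma), and the adjusted p rose to 0.0917, 0.0961 and 0.108 without each Cre-negative crushed replicate and to 0.0612 and 0.0657 without Cre-positive crushed replicates 1 and 4. The other Kif6 probe, assigned to the same transcript, did not move with it, at 0.31, 0.37 and 0.59 in Cre-negative and 0.50, 0.34, 0.14, 0.27 and 0.14 in Cre-positive crushed retinas (-0.15, adjusted p = 0.487 over single probes, limma). Both probes were faint. The mean Cy5 signal in the crushed groups was 134 to 143 for the other probe and 165 to 187 for the first. Over the 17 arrays the median Cy5 signal of all spots was 240 to 297, and that of the local background 72.5 to 84.

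Because 1 probe stood for each gene in these counts, all 68 motor probes that passed the signal filter were also tested singly, a step chosen after the data were seen. In crushed retinas 3 differed with Cre, against 1.12% of 30484 probes, and 1 was lower after crush in Cre-negative retinas, against 1.97%. None passed for crush in Cre-positive retinas (background 0.735%), for the difference of the crush effects (0.358%) or for Cre in uncrushed retinas (0.00984%), where 7, 8 and 3 probes had an unadjusted p under 0.05 (limma). The 3 were the first Kif6 probe and a second probe each of Kif1b and Dync1i1.

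The second Kif1b probe, assigned to transcript NM_008441, was lower in Cre-positive retinas. Crushed, it read 0.38, 0.70 and 0.60 in Cre-negative and 0.021, 0.23, -0.059, -0.12 and 0.084 in Cre-positive retinas. The groups did not overlap, and the difference was -0.53 (SE 0.090, 95% interval -0.72 to -0.34), or 0.691 times the Cre-negative level (adjusted p = 0.00356 over all probes, limma). Uncrushed, it read 0.21, 0.22, 0.32 and 0.16 in Cre-negative and 0.0066, -0.22, -0.16, -0.083 and 0.13 in Cre-positive retinas. These arrays had no part in the difference between the crushed groups, but they entered its SE and p through the shared estimate of the spread. Again the groups did not overlap (difference -0.30, SE 0.083, adjusted p = 0.894 over all probes, limma). For this probe alone the exact two-sided permutation p was 0.0159 (n = 4 and 5), not corrected for the choice of probe. The ganglion cell marker mean also differed between these uncrushed groups, 3.18 to 3.31 against 3.32 to 3.47, and its part in the Kif1b value was not tested. The crush effect on the probe was 0.33 without Cre (adjusted p = 0.0883, limma) and 0.097 with it (adjusted p = 0.740, limma), and the difference of the crush effects was -0.24 (adjusted p = 0.638, limma).

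The brightest Kif1b probe, assigned to NM_207682, gave an interval that does not reach the second probe's difference. It read 6.01, 5.76 and 5.86 in Cre-negative and 5.79, 5.88, 6.02, 5.93 and 6.04 in Cre-positive crushed retinas (0.050, 95% interval -0.095 to 0.19, adjusted p = 0.801, limma). Within each array, the second probe minus the brightest averaged -5.32 in Cre-negative and -5.90 in Cre-positive crushed retinas. The exact two-sided permutation p was 0.0179 (n = 3 and 5), the smallest these groups allow. It was 0.0714 after adjustment over 12 such comparisons of 3 genes. The 3 genes were chosen because a probe of each passed in these same crushed arrays. Neither p is corrected for that choice, so neither is separate support. The mean Cy5 signal in Cre-negative crushed retinas was 1039 for the second probe and 107100 for the brightest. The second probe passed in 30 of 30 other settings, with differences from -0.63 to -0.46 and adjusted p from 0.000874 to 0.0448 (limma), and at -0.55 without the cornea-rich and lens-rich arrays. Within the slides that held both crushed groups it was -0.52 and -0.36.

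The second probe of Dync1i1, the neuronal dynein intermediate chain that links the motor to dynactin, was lower after crush without Cre. It read 5.24, 5.15, 5.08 and 5.14 uncrushed and 4.88, 4.94 and 4.80 crushed in Cre-negative retinas. All 3 crushed retinas were below all 4 uncrushed ones (-0.28, SE 0.069, adjusted p = 0.0432 over all probes, limma). In Cre-positive retinas it read 5.25, 5.05, 5.21, 5.06 and 5.19 uncrushed and 5.20, 5.15, 5.39, 5.17 and 5.22 crushed (0.073, adjusted p = 0.730, limma). The crushed groups differed by 0.35 (SE 0.066, adjusted p = 0.00929, limma), while the difference of the crush effects did not pass (0.35, SE 0.090, adjusted p = 0.152, limma). The brightest Dync1i1 probe, assigned to the same transcript, read 5.97, 6.21, 5.94 and 6.10 uncrushed and 5.93, 5.98 and 5.91 crushed without Cre (-0.11, adjusted p = 0.739 over single probes, limma). It gave 0.078 for Cre in crushed retinas, where the other gave 0.35. The difference between the crushed groups fell to 0.18 with the Cy5 channel alone and 0.19 with the scanner software's processed signals (adjusted p = 0.300 and 0.755, limma), to 0.25 with no background subtraction (adjusted p = 0.209, limma), to 0.33 with the slide as a block (adjusted p = 0.150, limma), and to 0.31 without Cre-negative crushed replicate 3 (adjusted p = 0.0749, limma). With the disagreeing array as uncrushed it was 0.35 (adjusted p = 0.0977, limma), and the call was kept in the other 24 of 30 settings. The crush effect without Cre kept its call in 13 of 30 other settings, and was lost without any 1 of the 3 crushed Cre-negative arrays.

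**Figure D5:**
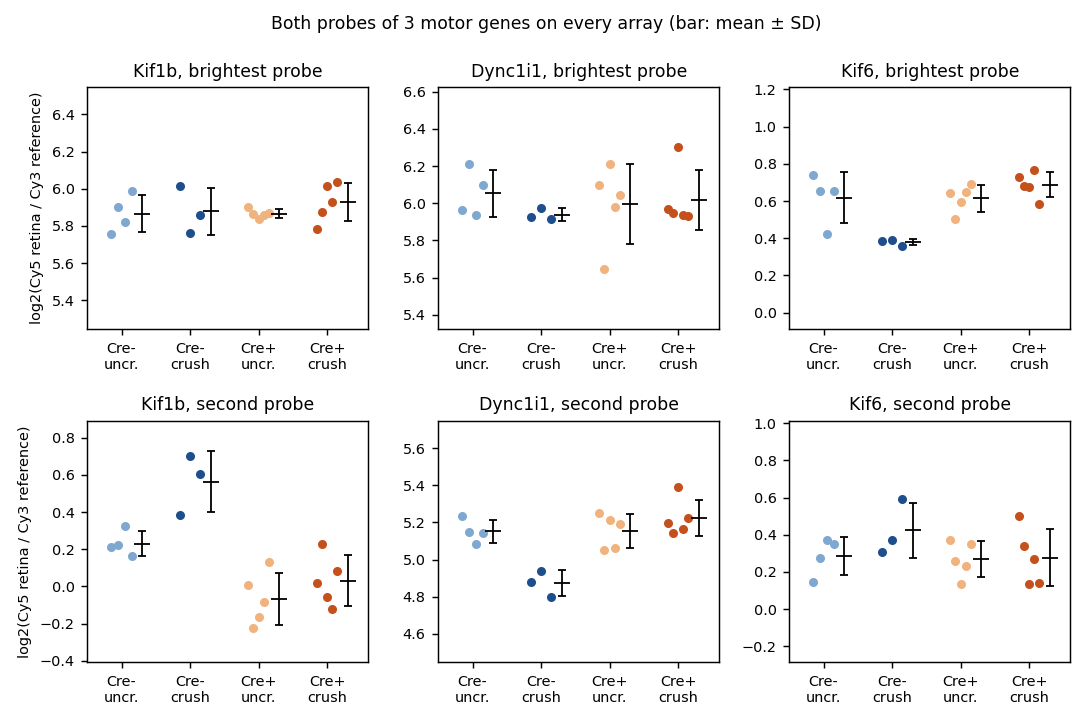
Log2 ratio (vertical axis; all panels span the same range) of the brightest (top) and second (bottom) probe of Kif1b, Dync1i1 and Kif6 on each of 17 arrays in 4 groups; black bars are mean ± SD. The second Kif1b probe lies lower in Cre-positive retinas in both crush states, while its brightest probe does not separate the groups.

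The partners of these motors gave few calls. Of 6 tested kinesin relatives outside the name rule, Kifap3, the subunit that joins Kif3a and Kif3b to cargo, was lower after crush in Cre-negative retinas (1.70 to 1.46, -0.24, SE 0.047, adjusted p = 0.00818, limma), while Kif3a, Kif3b and Kif3c gave crush effects of -0.050, 0.047 and -0.079 there. In Cre-positive retinas the Kifap3 effect was -0.097, and its difference of crush effects between genotypes did not pass (adjusted p = 0.55, limma). Cenpe, a centromere kinesin, was higher after crush in Cre-positive retinas (0.40, SE 0.066, adjusted p = 0.00485, limma), and its effect in Cre-negative ones was 0.28 (adjusted p = 0.0811, limma). None of 13 dynein light chain and other dynactin genes, 15 dynein regulators and adaptors, 24 kinesin cargo adaptors, 21 intraflagellar transport genes and 7 axonemal dynein heavy chains passed in either genotype's crush comparison (limma, background 2.19% and 0.776%).

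The region before the gene start was read for 42 of 54 motor genes, in 48 windows of 250 bases from RefSeq on GRCm38.p6. The AP-1 motif TGANTCA, bound by Jun and its partners downstream of JNK, was in 0 of 48 windows and 6.75% of all 32851 windows. The full cAMP response element TGACGTCA was in 4 of 48 (8.33%), against 1.55% of all windows, and TGACG, which lies within it, in 18 of 48 (37.5%), against 17.8%. CCAAT was in 20 (41.7%), against 33.8%. Both strands were searched. The windows with the full element belong to Dctn3, Kif17, Kif5c and Klc1, none of which passed in any comparison. They are shown because they are the only motor windows with that element (capitals), at chr4:41723227-41723254, chr4:138262155-138262182, chr2:49619250-49619277 and chr12:111758825-111758852, the first on the minus and the others on the plus strand.
Dctn3: gcctaaacagTGACGTCActtcctacaa
Kif17: ttccgtcctgTGACGTCAcggaggttgc
Kif5c: atctctgcagTGACGTCAccgtgccgag
Klc1: cgagggcgggTGACGTCAcggcgcacag

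The windows of the 3 genes with a probe past the threshold are chr4:149307734-149307983 (minus strand) for Kif1b, chr6:5725389-5725638 (plus strand) for Dync1i1 and chr17:49614922-49615171 (plus strand) for Kif6. Capitals mark TGACG and CCAAT on either strand. The Kif1b window shown held 1 TGACG and 2 CCAAT matches, Kif6 held 1 CCAAT, and Dync1i1 held none of the 4 motifs. Another Kif1b window, not shown, held the same numbers of matches. The windows were not matched to the transcripts of the probes. A match is a description of letters in the window.
Kif1b: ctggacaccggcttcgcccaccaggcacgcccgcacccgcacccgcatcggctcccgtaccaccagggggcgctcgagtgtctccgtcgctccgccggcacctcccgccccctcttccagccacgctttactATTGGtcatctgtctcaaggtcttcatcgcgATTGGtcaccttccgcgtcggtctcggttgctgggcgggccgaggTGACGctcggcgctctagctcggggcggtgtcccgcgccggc
Dync1i1: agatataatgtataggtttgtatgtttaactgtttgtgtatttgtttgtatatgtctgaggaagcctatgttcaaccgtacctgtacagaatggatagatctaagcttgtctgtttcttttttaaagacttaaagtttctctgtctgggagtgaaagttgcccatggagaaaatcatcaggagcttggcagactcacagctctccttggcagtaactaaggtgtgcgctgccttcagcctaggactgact
Kif6: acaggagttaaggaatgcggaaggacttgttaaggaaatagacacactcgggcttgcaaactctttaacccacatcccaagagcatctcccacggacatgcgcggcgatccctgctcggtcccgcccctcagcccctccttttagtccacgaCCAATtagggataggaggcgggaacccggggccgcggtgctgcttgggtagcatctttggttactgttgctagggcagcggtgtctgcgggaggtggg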

How the data were processed

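The 17 grouped arrays and 1 array left out, with 2 colours each, were deposited as scanner files of Agilent Feature Extraction 10.7.3.1, per the file headers, with intensity per spot in Cy5 (retina) and Cy3 (reference); the headers name build mm9. The authors' deposited value table holds log2 ratios of the same arrays, and limma is named in the submitters' processing notes. Its columns followed the ratios computed here with r of 0.999 to 1 and slopes of 1 to 1.02, so its direction is Cy5 over Cy3.

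Median spot intensity was corrected with normexp (offset 50) and loess within each array (limma 3.58.1, R 4.3.3), leaving out control spots and outlier flags. Spots of a probe were averaged. The brightest probe stood for each gene, and genes needed Cy5 well above background on 3 of 17 arrays. Among tested genes 49 values were missing. A model over 4 groups (13 residual degrees of freedom, two-sided, Benjamini-Hochberg over all genes) gave 5 comparisons. The model was tested on simulated data. Precision is limited by the number of arrays.

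Symbols came from the RefSeq table through each probe's accession. Members and lists were chosen with earlier results of these data known. Any member could be named, with values per array for those past the threshold or nearest to it. Where a paragraph on single probes gives an adjusted p, it runs over all probes. The 5 slides served as batches, as a fixed or random block and by differences within slides. Slide 1 held only Cre-positive arrays and slide 5 only Cre-negative ones. For these arrays a difference between genotypes cannot be told from a difference between slides.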

Additional observations from a re-analysis of the deposited data

Results flagged for a closer look

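Of 159 groups of 4 or 5 arrays examined over the motor genes and the second Kif1b and Dync1i1 probes, 11 held a sample set apart from the others by Dixon's ratio, where chance flags about 1 in 20. Cre-positive crushed replicate 3 carried 3, and Cre-negative uncrushed replicate 3 and Cre-positive uncrushed replicate 1 carried 2 each.

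In Cre-positive crushed replicate 3, Dync1i1 was high at 6.30 (others 5.93 to 5.97), Kif5b low at 0.86 (others 1.07 to 1.15) and Kif7 high at -1.99 (others -2.44 to -2.31). In Cre-negative uncrushed replicate 3, Kif13b was high at 0.11 (others -0.26 to -0.20) and Kif3c low at 1.23 (others 1.81 to 1.91). In Cre-positive uncrushed replicate 1, Dync1li2 was high at -0.16 (others -0.42 to -0.39) and Kif20b high at -3.56 (others -3.82 to -3.75). Kif17 was low in Cre-negative uncrushed replicate 1 at 0.31 (others 0.365 to 0.367) and in Cre-positive uncrushed replicate 2 at 0.32 (others 0.40 to 0.42). Dync2h1 was low in Cre-negative uncrushed replicate 2 at 1.57 (others 1.62 to 1.63), and Kif19a was low in Cre-positive crushed replicate 5, the lens-rich array, at -0.12 (others 0.16 to 0.27). None of these genes passed in any comparison with its brightest probe.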

How the results depend on the processing

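Over 31 other settings, 3 motor genes passed in at least 1 for crush without Cre, 1 for crush with Cre, 1 for the difference of the crush effects, 0 for Cre without crush and 4 for Cre after crush. The 1 gene called for Cre after crush became 0 with the scanner software's processed signals, with no background subtraction, with slide as a fixed block and with the disagreeing array as uncrushed, and 3 with that array as crushed. The 0 genes for crush without Cre became 1 with Cy5 alone, 2 with array weights and 2 with the disagreeing array as crushed. Leaving out each replicate gave 0 to 1 genes in 4 comparisons and 0 to 0 for Cre without crush. Of single probes, the 1 for crush without Cre became 0 with processed signals, no background subtraction, no filter and the disagreeing array as uncrushed, 2 with array weights and 4 with that array as crushed; leaving out each replicate gave 0 to 1. The 3 for Cre after crush became 1 with processed signals, no background subtraction, slide as a fixed block and the disagreeing array as uncrushed, and 5 with it as crushed; leaving out each replicate gave 1 to 3. The other 3 probe counts stayed at 0 throughout. The Kif1b difference after crush turned from 0.050 to -0.24 (adjusted p = 0.0344, limma) with the mean of its probes, which includes the lower second probe. The causes of the other changes were not tested. No paired analysis was possible because the labels give no replicate numbers or shared animals; the slide blocks are batches of arrays, not pairs. Kif12 and Kif13b were well above background on 3 of 17 arrays.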
